A study of Caenorhabditis elegans with 21 samples.

Results

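Early embryos of the *Caenorhabditis elegans* strain *oma-1(zu405)* were compared with early embryos of the wild type strain N2 by mRNA-seq. The comparison rests on 4 samples taken by genotype, 2 of *oma-1(zu405)* (libraries C1 and C2) and 2 of N2 (libraries A1 and A2), out of the 21 samples that the labels of the series describe. Further samples of the series are 1 more embryo sample of each of these genotypes, embryos of a double mutant that joins *fzy-1(D433N)* to *oma-1(zu405)* and immunoprecipitated or input RNA of adults that carry a tagged OMA-1, and they were not used in the tests. *oma-1(zu405)* is a temperature-sensitive gain-of-function missense allele, and N2 carries no mutation in the gene. Both genotypes were kept at 25 °C, and the embryos were freed from synchronized young adults with bleach, so each library is a pool of many embryos. The study describes nearly all of the embryos as being at early cell stages. Markers of differentiated embryos were also counted in each library, and the mix of stages in each library is not in the labels. A difference in that mix and a difference between the genotypes therefore cannot be told apart. The labels describe 3 samples per genotype without tying them to the 2 libraries analysed, and they do not say whether libraries of one genotype came from separate cultures. The p-values therefore measure the spread between these libraries, which may be technical. Of 47150 genes in the table, 12520 held at least 10 counts in at least 2 of the 4 libraries and were tested.

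OMA-1 and its paralog OMA-2 are cytoplasmic CCCH zinc finger proteins of the oocyte that bind maternal mRNAs and hold back their translation, and both act in oocyte maturation. After fertilization the kinase MBK-2 phosphorylates them and they are degraded around the first cell division. Persisting OMA protein is known to disturb blastomere fates, and in the first blastomeres it also holds the TFIID subunit TAF-4 in the cytoplasm, where transcription by RNA polymerase II cannot start. The earliest *C. elegans* embryo runs on RNA and protein laid down in the oocyte, part of that maternal RNA is cleared as development goes on, and zygotic transcription then provides the genes of differentiated tissues.

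Library C1 held 17728378 counts and C2 held 3981074, against 18815357 in A1 and 5973343 in A2. Counts were found for 15297 genes in C1 and 12482 in C2, against 20165 in A1 and 17182 in A2. The 10 most counted genes took 6.55% and 7.54% of the counts in *oma-1(zu405)*, against 2.97% and 3.25% in N2. Spearman's rho across genes, which are not independent replicates, was 0.984 for C1 with C2 and 0.993 for A1 with A2. RNA of the adult mother was scarce: 7 of 10 adult soma markers, among them 5 vitellogenins, stayed under 10 counts in each library, and the 10 together took 0.0194% and 0.0197% of the counts in *oma-1(zu405)*, against 0.0669% and 0.0756% in N2, nearly all of it from *far-1*. The 31 major sperm protein genes together took 0.000587% and 0.000201% of the counts in *oma-1(zu405)*, against 0.000112% and 0.000201% in N2, and none reached the test. The 7 oocyte and germline markers took 0.151% and 0.165% of the counts in *oma-1(zu405)*, against 0.0323% and 0.0329% in N2, the 8 early zygotic markers 0.0287% and 0.0214%, against 0.00921% and 0.00722%, and the 8 markers of differentiated embryos 0.0799% and 0.0727%, against 0.162% and 0.166%. In *oma-1(zu405)*, *ceh-51* alone held 4007 of 5093 and 625 of 852 early zygotic marker counts. In N2 it held 395 of 1732 and 89 of 431. Among the differentiated markers, *snb-1* held 8555 of 14163 and 1587 of 2893 counts in *oma-1(zu405)*. In N2 it held 5815 of 30452 and 1545 of 9888. The part of all these markers in the results below was not tested.

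The libraries differed in composition, so each fold change is given on 2 scales. With TMM scaling, which centres the bulk of the genes, 1455 genes (11.6% of those tested) were higher in *oma-1(zu405)* and 2824 (22.6%) were lower, at adjusted p-values under 0.05 and changes over 2 on the log2 scale (edgeR quasi-likelihood test with Benjamini-Hochberg adjustment). Scaled by library totals instead, 304 genes (2.43%) passed as higher and 5081 (40.6%) as lower. The scales differ by a nearly constant shift, with a median log2 fold change over all tested genes of −0.24 with TMM and −1.50 with total counts. All 304 genes higher with total counts were also higher with TMM, and all 2824 genes lower with TMM were also lower with total counts. Below, a gene "rose" or "fell" where it passed both thresholds with TMM, and the value with total counts follows where it is named as such. The genes that rose were abundant ones, with a median of 181 normalized CPM (counts scaled by TMM to a common library size) in *oma-1(zu405)* and 26.9 in N2. They took 55.5% and 55.3% of all counts in *oma-1(zu405)*, against 18.46% and 19.02% in N2. The genes that fell were rare ones, with a median of 0.552 normalized CPM in *oma-1(zu405)* and 6.09 in N2. Of these, 998 had 3 counts or fewer in each *oma-1(zu405)* library, where depth limits the fold change. A gene could pass the filter through 1 genotype alone, so some rare genes were tested only because N2 counted them. With at least 10 counts in 3 libraries, 1419 genes were lower, of 10218 tested. Level also went with the calls. In the highest of 3 equal classes by mean normalized CPM, 23.8% of genes rose and 3.07% fell, and in the lowest 4.36% and 45.8%. The counts of each list below are to be read beside these shares. The counts rest on the 4 libraries: in 1 fit over 6 libraries that adds the double mutant, no gene passed the adjusted p (1252 higher and 2429 lower at an unadjusted p under 0.05), and without N2 library A1 or A2 the lower genes numbered 1417 or 1481, of 10240 and 10583 genes that then passed the filter.

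**Figure D1:**
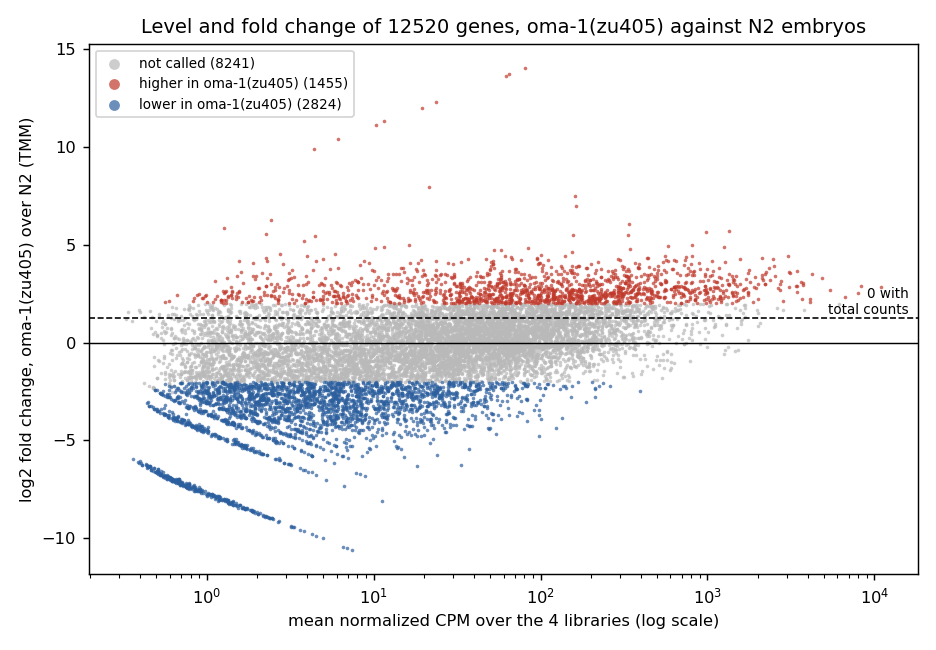
Each point is 1 of 12520 genes, with its mean normalized CPM over the 4 libraries on a log axis and its TMM log2 fold change, *oma-1(zu405)* over N2, on the vertical axis. The 1455 genes called higher lie mostly to the right and the 2824 called lower mostly to the left, the slanted lines at the bottom are genes with few or no counts in *oma-1(zu405)*, and the dashed line marks where a fold change is 0 with total counts.

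Both *oma* transcripts rose in the mutant. *oma-1* (WBGene00003864) stood at 850.0 and 659 normalized CPM in *oma-1(zu405)*, against 111.9 and 104.1 in N2, with a log2 fold change of 2.81 ± 0.16 (SE, edgeR adjusted p = 2.17e-15), or 1.55 with total counts. *oma-2* (WBGene00003865), which carries no mutation in this strain, stood at 841 and 592, against 50.5 and 47.4, with a log2 fold change of 3.87 ± 0.18 (SE, edgeR adjusted p = 1.98e-17), or 2.61 with total counts. Reads of the paralogs could be shared between them in the counting, and since the allele changes the protein and not the amount of RNA by design, the level of *oma-1* does not check the labels. *mbk-2*, the kinase that triggers OMA degradation, did not pass, with 1741 and 1651 normalized CPM in *oma-1(zu405)*, against 717 and 711 in N2, a log2 fold change of 1.25 with TMM and of 0.00 with total counts. *taf-4* did not pass either, and its direction turned with the scale, with 0.46 with TMM and −0.80 with total counts.

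All 7 CCCH zinc finger genes of maternal fate control rose, with a median log2 fold change of 3.11 against −0.24 over all genes, and 2 of them also passed with total counts, where the median was 1.87 against −1.50. *pos-1*, whose protein represses the translation of maternal mRNAs in the posterior blastomeres, held 2833 and 2581 normalized CPM in *oma-1(zu405)*, against 242 and 272 in N2. *mex-5*, which sets up the anterior to posterior gradients of such proteins, held 1559 and 1661, against 173 and 192. *pie-1*, which keeps the germline blastomere transcriptionally silent, held 163 and 172, against 16.7 and 22.8. In each of these genes the lowest *oma-1(zu405)* library was several fold above the highest N2 library. Together the 7 genes took 0.465% and 0.486% of the counts in *oma-1(zu405)*, against 0.121% and 0.127% in N2. *zif-1*, the adaptor that brings such CCCH proteins to a cullin ligase in somatic blastomeres, had a log2 fold change of 1.92 with TMM and 0.67 with total counts and passed on neither scale.

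Of 22 germline translational regulators, which control when maternal mRNA is read, 12 rose (54.55%, against 11.6% of all genes) and none fell. Their median was 2.05 (5 rose and none fell with total counts, median 0.80). The highest of 3 level classes, where 23.8% of all genes rose and 3.07% fell, held 19 of the 22. *puf-5*, a PUF repressor of the oocyte, held 611 and 717 normalized CPM in *oma-1(zu405)*, against 19.8 and 29.6 in N2, with a log2 fold change of 4.78 ± 0.19 (SE, edgeR adjusted p = 2.82e-18). *spn-4*, an RNA-binding regulator of blastomere fate, held 2553 and 2149, against 262 and 250, and *nos-2*, a Nanos homolog of the primordial germ cells, had a log2 fold change of 3.51 (2.25 with total counts). Other members were nearly level with TMM: *larp-1* (0.47), *nos-3* (0.20) and *gls-1* (−0.23) were at −0.78, −1.06 and −1.49 with total counts, so that the first pair turned direction. Within this list longer transcripts had lower fold changes, with a Spearman's rho of −0.79 between exon length and log2 fold change over its 22 genes.

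P granules are the RNA and protein bodies of the germline. Of 15 P granule and MEG genes, 9 rose (60%, against 11.6% of all genes) and none fell, with a median of 2.05 (0.79 with total counts). *ife-1*, a cap-binding factor found in P granules, held 1284 and 776 normalized CPM in *oma-1(zu405)*, against 60.3 and 56.1 in N2, and *deps-1*, which promotes P granule assembly, held 573 and 615, against 38.6 and 42.2. *meg-1*, *meg-2* and *pgl-1* had log2 fold changes of 2.98, 3.24 and 2.98, while the helicase gene *glh-1* stayed under the threshold at 1.74. Of 13 tested genes of the eggshell and of egg activation, 9 rose (69.2%) and none fell (4 rose with total counts). The eggshell proteoglycan gene *cpg-2* held 373 and 238 normalized CPM in *oma-1(zu405)*, against 7.09 and 6.16 in N2, with a log2 fold change of 5.51 ± 0.21 (SE, edgeR adjusted p = 1.58e-18), and its relative *cpg-1* held 182 and 144, against 6.82 and 3.63. The yolk receptor gene *rme-2* held 22.2 and 23.9, against 3.27 and 3.63.

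None of the genes listed for the clearing of maternal mRNA fell. Of 17 genes for deadenylation, decapping and related ribonucleoproteins, 8 rose (47.1%, against 11.6% of all genes) and none fell with TMM. None passed in either direction with total counts. All 17 lay in the highest of 3 level classes, where 23.8% of all genes rose and 3.07% fell. The poly(A)-binding protein gene *pab-1* held 7339 and 6304 normalized CPM in *oma-1(zu405)*, against 1426 and 1433 in N2. The deadenylase gene *ccf-1* was 2.97 higher on the log2 scale with TMM (1.73 with total counts). *let-711*, the scaffold of the same deadenylase complex, had 0.16 with TMM and −1.09 with total counts, and the exonuclease gene *xrn-1* had −0.49 and −1.75.

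Genes of the cell cycle rose in part. Of 18 cyclins, cyclin-dependent kinases and mitotic kinases, 9 rose (50%) and none fell, with a median of 1.88 (none passed with total counts, median 0.62). *cyb-3*, a B-type cyclin needed for mitosis, held 6810 and 6436 normalized CPM in *oma-1(zu405)*, against 819 and 908 in N2, and *cdk-1* held 1166 and 941, against 161 and 154. In contrast *cdk-2* and the A-type cyclin gene *cya-1* did not pass, with log2 fold changes of 0.14 and 0.35, turning to −1.12 and −0.91 with total counts. Of 18 replication licensing genes, 8 rose (44.4%, against 11.6% of all genes) and none fell. Those that rose included the GINS subunit gene *psf-1* at 3.58 and the sliding clamp gene *pcn-1* at 3.33. Of 14 genes of the anaphase promoting complex and its partners, 3 rose with TMM (21.4%, against 11.6% of all genes) and none fell. The highest of 3 level classes, where 23.8% of all genes rose and 3.07% fell, held 10 of the 14. With total counts 3 passed as lower (21.4%, against 40.6% of all genes and 12.65% of that class). Its small subunit gene *cdc-26* had a log2 fold change of 2.06, and its large platform subunit genes *mat-2* and *emb-30* had −0.80 and −1.06 (−2.06 and −2.33 with total counts). The activator gene *fzy-1* held 446 and 400 normalized CPM in *oma-1(zu405)*, against 172 and 173 in N2, a log2 fold change of 1.29 with TMM and 0.04 with total counts.

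The 4 tubulin genes of the early embryo rose together. *tba-2* held 7902 and 7688 normalized CPM in *oma-1(zu405)*, against 622 and 735 in N2, with a log2 fold change of 3.52 ± 0.18 (SE, edgeR adjusted p = 1.42e-16), and *tbb-1*, *tbb-2* and *tba-1* had 3.40, 3.11 and 2.82. A further 8 tubulin genes were tested, and 3 of them fell, among them *tba-5*, an alpha tubulin of sensory cilia, at −5.78. *tac-1*, whose protein stabilizes microtubules at the centrosome, was 4.22 higher on the log2 scale, one of 2 genes that rose among 16 of centrosome and spindle (12.5%, against 11.6% of all genes). Of 11 PAR polarity genes, 2 rose (18.2%), among them the 14-3-3 gene *par-5* at 3.21. Of 20 Wnt and Notch genes of the early blastomeres, 3 rose (15%, near the 11.6% of all genes) and 1 fell (5%, against 22.6%). The Notch ligand genes *lag-2* and *apx-1* and the Wnt ligand gene *mom-2* rose, at 2.86, 2.74 and 2.14. The beta-catenin gene *bar-1*, known for later Wnt signalling, fell at −3.29. None of the 3 ligand genes passed with total counts.

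**Figure D2:**
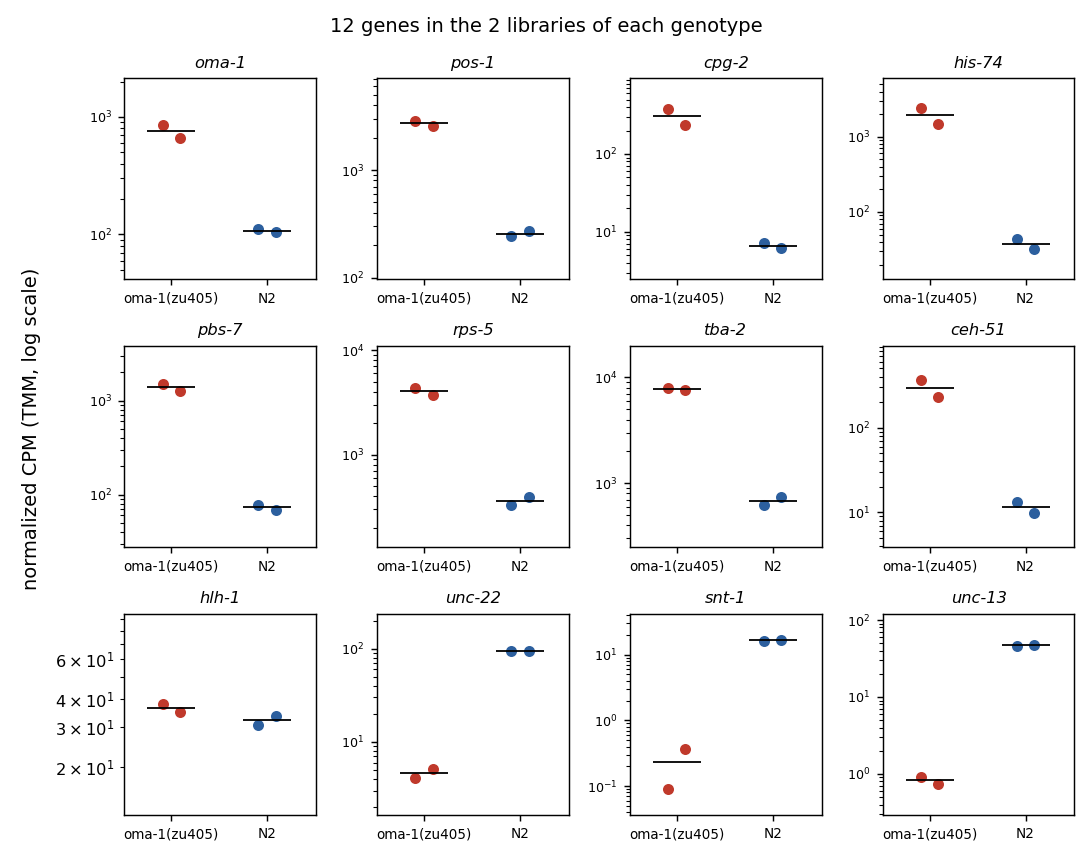
Each panel shows 1 gene on its own log axis of normalized CPM, with the 2 *oma-1(zu405)* libraries at left, the 2 N2 libraries at right and a bar at the mean of each genotype. The maternal and housekeeping genes from *oma-1* to *tba-2* and the zygotic gene *ceh-51* are higher in *oma-1(zu405)*. *hlh-1* is nearly level, and *unc-22*, *snt-1* and *unc-13* are lower. The genotypes do not overlap in any panel, which was also so for 11042 of the 12520 tested genes.

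Most genes of several housekeeping complexes rose. The proteasome degrades ubiquitinated proteins with a barrel of alpha and beta subunits, the core particle, capped by the regulatory particle. Of its 33 tested genes 29 rose and none fell, with a median of 3.03 (13 rose with total counts, median 1.77). All 14 core particle genes rose, between 2.30 and 4.24, and 13 of them also passed with total counts. *pbs-7*, a beta subunit, held 1513 and 1261 normalized CPM in *oma-1(zu405)*, against 77.6 and 69.2 in N2, with a log2 fold change of 4.24 ± 0.17 (SE, edgeR adjusted p = 3.85e-18). The regulatory particle had smaller values, with 5 of 6 ATPase genes at a median of 2.55 and 10 of 13 non-ATPase genes at a median of 2.54 rising with TMM and none with total counts. Its scaffold subunit gene *rpn-2* had 1.93 (0.69 with total counts).

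The 80 tested genes of the cytosolic ribosome all had a positive log2 fold change, and 66 rose, with a median of 2.40 and a narrow range from 1.44 for *rpl-3* to 3.48 for *rps-5*. With total counts, 4 rose and all 80 stayed positive, with a median of 1.15. *rps-5* held 4353 and 3714 normalized CPM in *oma-1(zu405)*, against 328 and 394 in N2. Ribosomal protein genes took 9.03% and 8.92% of all counts in *oma-1(zu405)*, against 3.61% and 3.86% in N2, a ratio that uses no scaling factor. The median was 2.44 over 49 genes of the large subunit and 2.38 over 31 genes of the small subunit. Of 41 translation factors, 22 rose (53.7%, against 11.6% of all genes) and none fell. Those that rose included *iff-1*, an eIF5A homolog of the germline, at 4.45 and the elongation factor gene *eef-1B.1* at 4.33. The scaffold gene *ifg-1* had −0.09 (−1.34 with total counts).

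Of 44 nuclear genes of oxidative phosphorylation, 28 rose (63.6%, against 11.6% of all genes) and none fell, with a median of 2.44 (9 rose with total counts). *atp-2*, the beta subunit of the ATP synthase, held 5562 and 6435 normalized CPM in *oma-1(zu405)*, against 713 and 904 in N2. *cox-7C* led the list at 4.09. The 12 protein-coding genes of the mitochondrial genome did not follow, with a median of 0.17 (−1.09 with total counts) and 3 genes called higher. They took 0.407% and 0.353% of the counts in *oma-1(zu405)*, against 0.950% and 1.05% in N2. Of 70 mitochondrial ribosomal protein genes, 12 rose (17.1%, against 11.6% of all genes) and 1 fell, with a median of 0.75, which turned to −0.51 with total counts. The shortest of 3 classes of exon length, where 21.6% of all genes rose, held 54 of the 70.

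Of 33 tested histone genes, 28 rose (84.85%, against 11.6% of all genes) and none fell, and 14 passed with total counts. Replication-dependent histone mRNAs mostly lack a poly(A) tail, so their counts depend on how the libraries were prepared. The 3 genes of this list with the highest levels belong to other kinds. The *hil* linker histone genes were not in this list. *his-24*, a linker histone, held 5583 and 6515 normalized CPM in *oma-1(zu405)*, against 616 and 1013 in N2, and the H3.3 gene *his-72* held 5635 and 5156, against 716 and 792. *his-74*, another H3 variant gene, held 2392 and 1464, against 44.0 and 31.9, with a log2 fold change of 5.65 ± 0.22 (SE, edgeR adjusted p = 2.52e-18). The H3.3 gene *his-71* had 1.83 and stayed under the threshold, and *his-35* had 0.64, turning to −0.62 with total counts. The nearly identical copies of the core histones can share reads, so their single values are uncertain. Of 28 genes of TFIID and RNA polymerase II, 7 rose (25%, against 11.6% of all genes) and none fell. The highest of 3 level classes held 25 of the 28, and 23.8% of all genes in that class rose. Those that rose included the polymerase subunit genes *rpb-10* at 3.72 and *ama-1*, which encodes the catalytic subunit, at 2.02 (2.45 and 0.79 with total counts).

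The size of the transcript moved with these changes. In the lowest of 10 equal classes of annotated exon length (615 bases or less), 30.7% rose and 11.6% fell, and in the highest (3286 bases or more), 1.68% rose and 29.3% fell. The order was also present among genes of like level: in the highest of 3 level classes of equal size, 56.7% of the 1015 genes in the shortest length class (1101 bases or less) rose, against 6.80% of the 1955 genes in the longest (1858 bases or more). With total counts these shares were 16.2% and 0.512%. Across all 12501 genes with a length the Spearman's rho between exon length and log2 fold change was −0.25. Within lists the relation varied. The correlation coefficient was −0.69 over 33 proteasome genes, −0.63 over 28 TFIID and polymerase genes, −0.64 over 14 APC/C genes, −0.79 over 17 decay factors and −0.54 over 53 spliceosome genes. It was −0.28 over 13 condensin and cohesin genes, −0.26 over 16 centrosome genes, −0.15 over 16 kinetochore genes, −0.14 over 80 ribosomal protein genes and −0.08 over 40 nucleoporin and import genes, and it was positive over 56 chaperonin and heat shock genes, at 0.47. In the spliceosome all 7 Sm protein genes (median length 563 bases) rose, for example *snr-5* at 3.85, and none of 13 *prp* genes (median length 1974 bases) did, for example *prp-8* at 0.35, or −0.90 with total counts. The ribosomal protein genes, 78 of 80 in the shortest of 3 length classes, rose in 82.5% of cases, the proteasome genes, 15 of 33 in that class, in 87.9%, and all 33 tested histone genes were in it. The germline translational regulators went against this order as a list, as 16 of 22 lay in the longest class and 12 rose. These correlations are across genes of the same libraries, and the part of transcript length in the calls, whether through the RNA of the embryos or through the making of the libraries, was not tested.

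**Figure D3:**
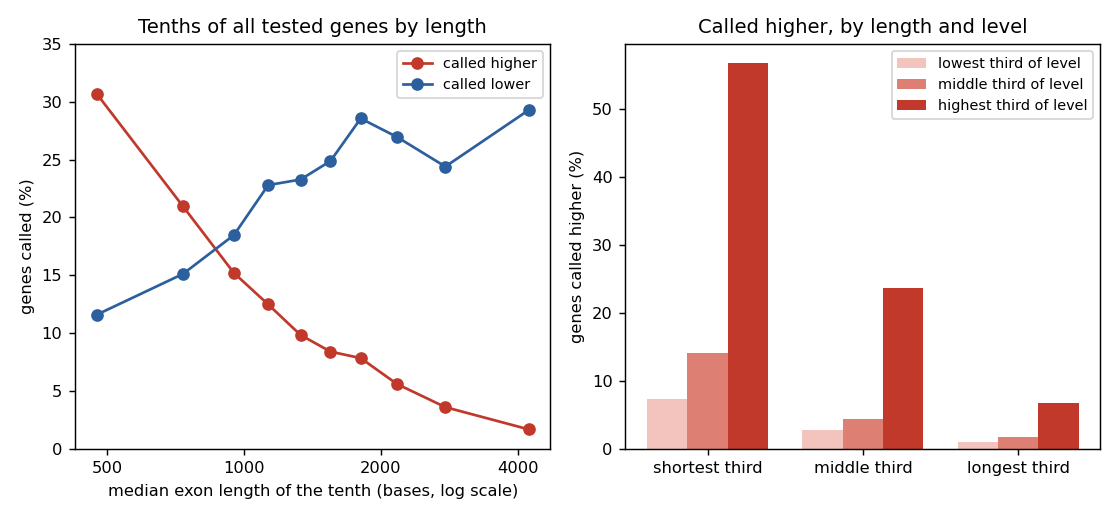
At left, the share of genes called higher and lower (percent) in 10 equal classes of the tested genes by annotated exon length, plotted at the median length of each class on a log axis. At right, the share called higher in 3 classes of length, split by 3 classes of mean level. The share called higher falls from 30.7% in the shortest class to 1.68% in the longest, and the decline is present at each level.

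Of 23 tested early zygotic genes, 2 rose (8.70%, against 11.6% of all genes) and none fell (against 22.6%), with a median of 1.36 (0.09 with total counts), 20 of them on the positive side with TMM. *ceh-51*, a homeobox gene of the MS mesoderm lineage, held 366 and 230 normalized CPM in *oma-1(zu405)*, against 13.5 and 9.79 in N2, with a log2 fold change of 4.65 ± 0.21 (SE, edgeR adjusted p = 1.41e-17), or 3.38 with total counts. *end-1*, a GATA factor of the endoderm, held 28.3 and 25.0, against 5.59 and 6.38, a log2 fold change of 2.19 with TMM and 0.93 with total counts. The MS and E lineages both descend from the EMS blastomere. *tbx-37* and *tbx-38*, T-box genes of the anterior blastomeres, had 1.32 and 1.89 and did not pass, and *pes-10*, among the first genes transcribed in the somatic blastomeres, had 0.33 with TMM and −0.93 with total counts. *end-3* held 37 counts or fewer in each library. *skn-1*, the maternal factor upstream of the EMS genes, held 333 and 432 normalized CPM in *oma-1(zu405)*, against 178 and 222 in N2, with a log2 fold change of 0.93 that turned to −0.31 with total counts. The *sdz* genes, named as zygotic genes downstream of SKN-1, had 4 of 30 members higher, among them *sdz-32* at 3.15, and 4 lower, 13.3% each, against 11.6% and 22.6% of all genes.

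The factors that specify tissues were near the bulk of the genes. Of 35 tested, 1 rose and 4 fell (11.4%, against 22.6% of all genes), with a median of −0.27. The muscle factor gene *hlh-1* held 37.99 and 34.98 normalized CPM in *oma-1(zu405)*, against 30.6 and 33.5 in N2. The intestinal GATA factor gene *elt-2* held 19.4 and 15.8, against 19.98 and 18.36, and the pharynx factor gene *pha-4* held 258 and 215, against 171 and 192. The differences of these 3 genes did not pass with TMM, at log2 fold changes of 0.20, −0.09 and 0.39, and all 3 were negative with total counts, at −1.06, −1.36 and −0.87. The Hox gene *nob-1* rose at 2.01 (0.76 with total counts), and the Hox gene *mab-5* and the homeobox gene *vab-7* fell at −2.08 and −2.81. RNA of whole embryos was measured, so fewer cells of a type and less RNA per cell cannot be told apart, here and in what follows.

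Of 38 muscle sarcomere genes, 13 fell (34.2%, against 22.6% of all genes) and none rose, with a median of −1.27 (28 fell with total counts). The lowest was a giant sarcomere protein gene: *ttn-1* held 6.67 and 7.73 normalized CPM in *oma-1(zu405)*, against 191 and 187 in N2, with a log2 fold change of −4.76 ± 0.20 (SE, edgeR adjusted p = 4.91e-18). The twitchin gene *unc-22* held 4.11 and 5.16, against 94.7 and 93.7. The body wall myosin genes *unc-54* and *myo-3* had −1.08 and −1.74 and passed with total counts only, and the tropomyosin gene *lev-11* was level with TMM at −0.04, against −1.29 with total counts. *ttn-1* has 56044 bases of annotated exon, the longest of all tested genes, and *unc-22* has 23368, and the part of this length in their fold changes was not tested.

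Most of the neuronal genes fell. Of 29 genes of neuronal function, 21 fell and none rose, with a median of −2.85 (−4.13 with total counts). *snt-1*, the synaptotagmin of synaptic vesicles, held 1 count in C1 and 1 in C2, against 478 in A1 and 151 in A2, with a log2 fold change of −6.71 ± 0.53 (SE, edgeR adjusted p = 2.25e-12). *unc-13*, a priming factor of vesicle release, held 10 and 2 counts, against 1359 and 435. *rgef-1*, a gene expressed throughout the nervous system, held no count in *oma-1(zu405)*, against 169 and 45 in N2, and was at least 25.4-fold lower when the *oma-1(zu405)* libraries are set to the limit of 3 counts together. *snb-1*, the synaptobrevin gene that other cells also use, had 1.89 (0.64 with total counts), and *unc-119* had 1.22, turning to −0.04 with total counts. Of 45 tested genes of sensory cilia, a group added after the values were seen, 40 fell and none rose, with a median of −3.53 and *che-11*, a subunit of intraflagellar transport, at −5.82. Of 71 tested genes for neurotransmitter receptors and gated channels 52 fell and 1 rose (73.2% lower, against 22.6% of all genes). A rare member could pass the filter through the N2 libraries alone, so this share does not describe the whole family. The lowest of the 3 level classes, where 45.8% of all genes fell, held 58 of the 71. The longest of the 3 length classes held 41 of the 71 and 18 of the 29 genes of neuronal function. Of all genes in both the lowest level class and the longest length class, 66.7% fell. Cilium genes had a median exon length of 2121 bases, against 1438 over all tested genes. The part of length in these shares was not tested. The glutamate receptor gene *glr-1* held 4 and 1 counts in *oma-1(zu405)*, against 362 and 129 in N2. The exception that rose was the dopamine receptor gene *dop-4*, with 60 and 19 counts, against 34 and 12, at 2.29 with TMM and 1.03 with total counts.

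Of 17 intestinal differentiation genes, 6 fell (35.3%) and none rose, with the acid phosphatase gene *pho-1* at −5.71, while *act-5*, the microvillar actin, had 0.71 and *erm-1* had 0.18, both negative with total counts (−0.54 and −1.07). Of 27 genes of epidermis and junctions, 6 fell (22.2%, close to the share of all genes). Of 76 tested cuticle collagens, 8 rose (10.5%, against 11.6% of all genes) and 13 fell (17.1%, against 22.6%), shares near those of all genes. *sqt-3*, *dpy-14* and *dpy-17*, the most abundant collagens of these embryos, had 0.12, −0.24 and −0.36 with TMM and −1.12, −1.49 and −1.61 with total counts, and none was called on either scale. *col-74* fell at −3.01, with 43.7 and 37.6 normalized CPM in *oma-1(zu405)*, against 294 and 373 in N2.

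Several large families of animal signalling and detoxification had larger shares of genes that fell than all genes. Many of their members are rare, and in the lowest of the 3 level classes 45.8% of all genes fell. Such members could also pass the filter through the N2 libraries alone. Of 172 tested nuclear hormone receptor genes, 77 fell and none rose (44.8%, against 22.6% of all genes), with a median of −1.81, and most of the 172 lay in that lowest level class. Abundant members were not among them, as *nhr-46* had 0.53 and *nhr-49* −0.25 (−0.72 and −1.51 with total counts). Of 65 tested hedgehog-related and patched-related genes, 38 fell and 1 rose. *grd-1* held no count in *oma-1(zu405)*, against 247 and 78 in N2, which made it at least 38.5-fold lower, and *ptc-1*, a Patched homolog needed in the germline, had 0.14 (−1.11 with total counts). Of 72 genes for cytochrome P450 and glucuronosyltransferases, 38 fell and 2 rose, and of 14 astacin proteases 10 fell and none rose, with 50 of the 72 and 12 of the 14 in the lowest level class. Of 4 small heat shock genes of the *hsp-16* family, 3 fell, and *hsp-16.41* held 14.2 and 12.5 normalized CPM in *oma-1(zu405)*, against 70.9 and 71.7 in N2. Of 24 glutathione transferases, 4 rose (16.7%, against 11.6% of all genes) and 3 fell (12.5%, against 22.6%). *gst-7* held 1488 and 1341 normalized CPM in *oma-1(zu405)*, against 67.3 and 66.6 in N2, and the stress-inducible *gst-4* held 0.639 and 0.736, against 13.2 and 13.7.

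**Figure D4:**
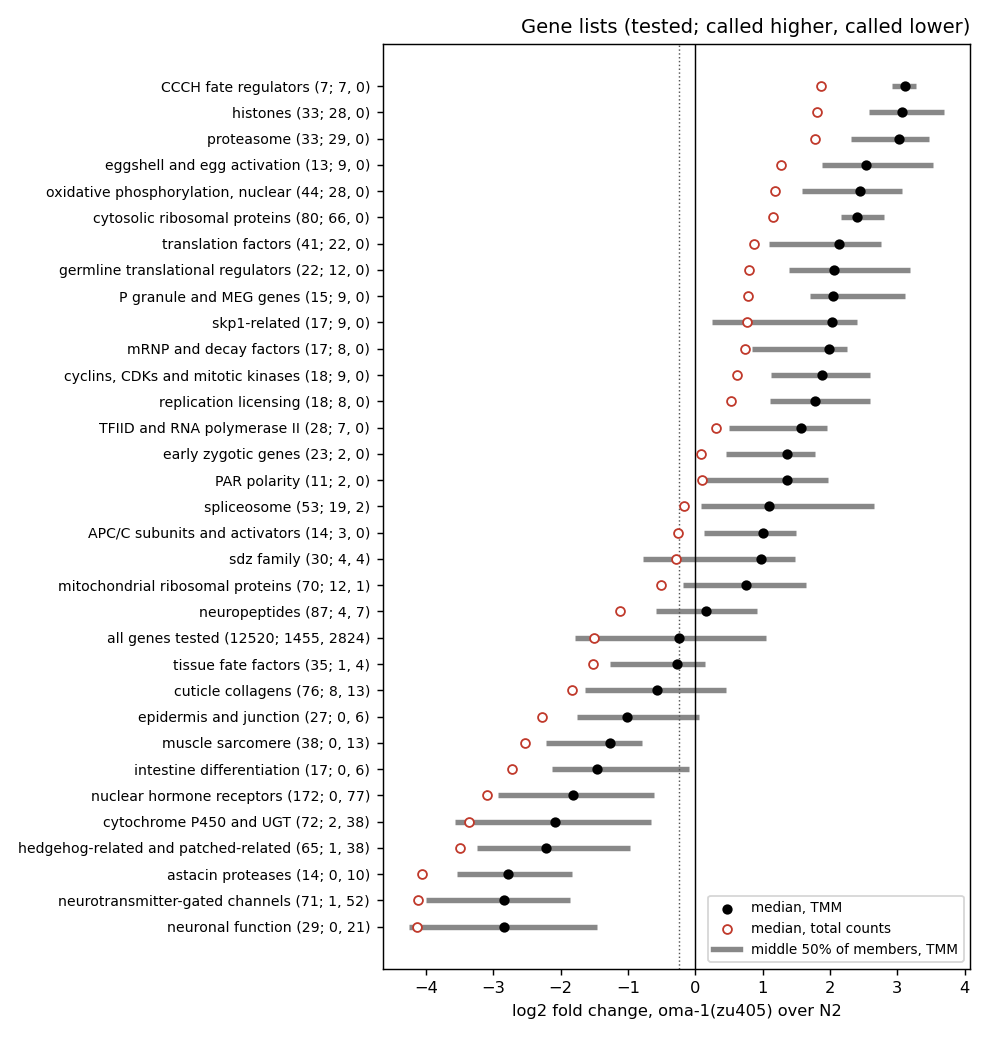
Gene lists in order of their median log2 fold change, *oma-1(zu405)* over N2, with the number of members tested, called higher and called lower in brackets. Black points are medians with TMM, grey bars the middle 50% of the members, open red points medians with total counts, and the dotted line the median of all tested genes with TMM (−0.24). Maternal and housekeeping lists lie at the top, the tissue factors near the line and the neuronal and receptor lists at the bottom, and the change of scale moves all lists to the left by about the same amount.

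Gene classes deposited beside another experiment of the series differed in their calls, beside 11.6% of all genes that rose and 22.6% that fell. Of 1428 tested genes classed as oogenic, 251 rose (17.6%) and 88 fell (6.16%), and of 828 classed as spermatogenic, 64 rose (7.73%) and 309 fell (37.3%). Of 3989 germline-enriched genes, 520 rose (13.04%) and 276 fell (6.92%), and of 2841 soma-enriched genes, 237 rose (8.34%) and 993 fell (34.95%). By chromosome, fewer protein-coding genes of the X rose and more fell than on any autosome, with 96 (5.39%) and 557 (31.3%) of 1781. On the autosomes, between 8.80% (chromosome V) and 14.1% (chromosome I) rose and between 14.9% (chromosome I) and 29.2% (chromosome V) fell. The X carries few germline genes, and within the classes its order was not uniform. Among soma-enriched genes 30.9% fell on the X, against 36.4% on the autosomes, and among germline-enriched genes 16.9% fell on the X, against 6.02% on the autosomes. Pseudogenes fell more often than protein-coding genes (32.1% of 343, against 22.2% of 12030).

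By the rule used for named genes, the 6 largest increases lie side by side in 1 region of chromosome II, 5 of them in a stretch with no N2 count. The stretch runs from 988737 to 1049949 in WBcel235 and holds 9 genes with at least 10 counts in both *oma-1(zu405)* libraries and none in either N2 library, with *fbxc-40*, at 490 and 109 counts in *oma-1(zu405)* and 1 and 5 in N2, just outside it. Of the 9 genes, 6 are F-box genes (*fbxb* and *fbxc*) and *btb-11* is a BTB gene, families whose proteins act as adaptors of ubiquitin ligases. No other gene of the table met this condition, while in the opposite direction 308 genes on 6 chromosomes held no count in *oma-1(zu405)* and at least 10 in both N2 libraries, with 92 of them on chromosome V. *btb-11* held 1724 and 450 counts in *oma-1(zu405)* and none in N2, at least 2038-fold higher when the N2 libraries are set to the limit of 3 counts together. Genes on either side of the stretch were counted in both genotypes: *btb-10* held 2403 and 480 counts in *oma-1(zu405)*, against 1128 and 360 in N2, and *fbxc-18* held 201 and 24, against 1052 and 333. Families of this kind share reads between copies, and a difference between the strains in the sequence of this stretch and a change of its expression cannot be told apart here.

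**Figure D5:**
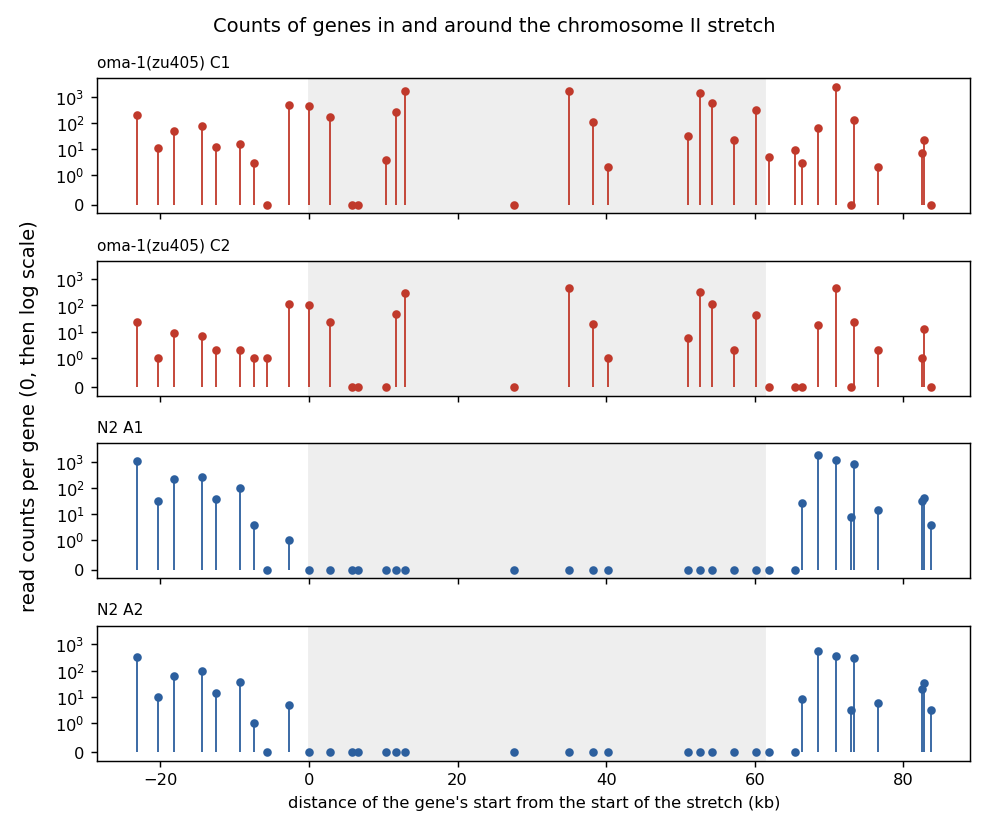
Counts per gene (0, then log scale) in each library against the distance of the gene's start from the start of the chromosome II stretch, shaded, with the *oma-1(zu405)* libraries above the N2 libraries. In N2 all genes inside the shading are at 0, while the genes outside it are counted in all 4 libraries, apart from a few of low count.

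Outside this region, the 3 largest increases included those of F23A7.4 and F23A7.8, neighbouring genes on chromosome X (16212606 to 16212812 and 16213373 to 16213576) with 207 and 204 bases of exon. F23A7.4 held 3544 and 852 counts in *oma-1(zu405)*, against 44 and 21 in N2, with a log2 fold change of 7.51 ± 0.22 (SE, edgeR adjusted p = 5.62e-21), or 6.27 with total counts. *rnh-1.3*, a ribonuclease H homolog on chromosome I (9710088 to 9710745), held 359 and 289 normalized CPM in *oma-1(zu405)*, against 2.56 and 2.53 in N2. *cey-2*, a Y-box RNA-binding protein gene of the germline on chromosome I (5619569 to 5620669), held 2867 and 2451 normalized CPM, against 51.2 and 49.4, with a log2 fold change of 5.72 ± 0.19 (SE, edgeR adjusted p = 2.81e-20), or 4.47 with total counts. At the other end, K01D12.9 and K01D12.1 lie near each other on chromosome V (12403956 to 12404644 and 12377556 to 12378934) and held no count and 1 count in *oma-1(zu405)* in all, against 436 and 136 and against 588 and 226 counts in N2. F37A4.3, D1014.5 and F49D11.6 held 0 or 1 count in *oma-1(zu405)*, and *snt-1*, *suro-1*, *cla-1* and *pmp-4* were among the 10 largest decreases of the genes with a symbol. *cla-1*, a large protein of the presynaptic active zone, held 12 and 0 counts, against 1889 and 625, and *suro-1*, a carboxypeptidase-like gene of the cuticle, held 5 and 1, against 1031 and 330.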

How the data were processed

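Early embryos of *oma-1(zu405)* and N2 were profiled by mRNA-seq. The authors deposited whole read counts per gene, made from reads that were aligned and counted by gene. The submitters' processing notes name CASAVA 1.4, HISAT2 2.0.5 and HTSeq 0.6.0. The genome build and the strand setting of the counting are not given in the sources used here, so reads of overlapping antisense genes cannot be told apart. The deposited gene classes (oogenic, spermatogenic, germline or soma enriched), per the file headers, come from columns beside another experiment. Columns with the authors' own fold changes and p-values were not used, nor were 34 other per-sample columns.

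Columns were tied to a genotype by the letter in their name and to no replicate number. Of 47150 genes, 46782 were found in the WBcel235 annotation, which gave symbols, coordinates and exon lengths. The 12520 genes that reached 10 counts in 2 or more of the 4 libraries were tested with edgeR 4.0.16 (quasi-likelihood test, TMM scaling, Benjamini-Hochberg adjustment, R 4.3.3), and a call needed an adjusted p under 0.05 and a log2 fold change past 2. In results given "with total counts" the TMM factors (0.618 and 0.682 in *oma-1(zu405)*, 1.56 and 1.52 in N2) were left out. A count of 0 allows up to 3 counts, which is 0.169 CPM in C1 and 0.754 in C2, against 0.159 in A1 and 0.502 in A2, for counting error only. Tested on simulated data with 200 of 12520 genes changed by a log2 fold change of 3, edgeR recovered 200 with 1 false call. The changed genes were split evenly by direction and were not among the rarest. The simulation therefore does not measure errors under the difference in composition of these libraries or among rare genes. DESeq2 1.42.0, other scalings, filters and left-out libraries served as alternatives. Figures were drawn with matplotlib 3.10.9.

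The lists and the members named were chosen with earlier results of these data known. Named genes were those the study's text names, the 10 largest changes with a symbol in each direction (100 counts or more in each library of the higher genotype, no overlap between genotypes), the 4 most abundant members and the extreme called members of each list, and the genes of the stretches without counts. The groups of cilium, Sm, *prp*, core proteasome and ribosomal subunit genes, the increases outside the chromosome II stretch, and other members named for their known role were chosen after the values were seen.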

Additional observations from a re-analysis of the deposited data

Results flagged for a closer look

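The 9 genes of the chromosome II stretch that had no count in either N2 library were also counted in the embryos of the double mutant that joins *fzy-1(D433N)* to *oma-1(zu405)*, which entered no comparison here. Together they held 831 counts in double mutant library D1 and 2629 in D3. This was singled out because it is a signal in libraries outside the comparison, above the N2 level of 0. The same 9 genes held 6631 and 1422 counts in the *oma-1(zu405)* libraries. With 2 libraries per genotype, single libraries were not tested for standing apart from their group.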

How the results depend on the processing

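The number of higher genes (1455) was 304 with total counts, 910 with upper quartile scaling and 3168 at a log2 fold change of 1, and the number of lower genes (2824) was 5081 with total counts, 1419 with at least 10 counts in 3 libraries (of 10218 genes) and 4359 at a log2 fold change of 1. In 1 fit of 6 libraries both counts were 0. Leaving out 1 library gave 1193 to 1573 higher and 1417 to 2777 lower genes, the lowest being without N2 library A1 (1417) and A2 (1481), where the filter left fewer genes to test. DESeq2 called 1445 and 2660. With a replicate block on the column numbers the counts were 1442 and 2795. Those numbers are not tied to the labels. Deviations of C1 and A1 from the means of their genotypes correlated across genes at r = 0.113. This is a single value, as with 2 libraries per genotype C2 and A2 mirror it. C1 and A1 were also the deeper libraries of their genotypes, and whether the numbers mark a batch was not tested. The all-gene median moved from −0.24 with TMM to −1.50 with total counts, and all 66 lists with tested members kept their side of that median, while 42 of 66 kept the sign of their own.

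With total counts the log2 fold change turned sign for *skn-1* (−0.31), *taf-4* (−0.80), *act-5* (−0.54), *cdk-2* (−1.12), *cya-1* (−0.91), *erm-1* (−1.07), *his-35* (−0.62), *hlh-1* (−1.06), *larp-1* (−0.78), *let-711* (−1.09), *nhr-46* (−0.72), *nos-3* (−1.06), *pes-10* (−0.93), *pha-4* (−0.87), *prp-8* (−0.90), *ptc-1* (−1.11), *sqt-3* (−1.12) and *unc-119* (−0.041). With upper quartile scaling the log2 fold change turned sign for *cdk-2* (−0.31), *cya-1* (−0.098), *erm-1* (−0.26), *hlh-1* (−0.25), *let-711* (−0.27), *nos-3* (−0.24), *pes-10* (−0.12), *pha-4* (−0.052), *prp-8* (−0.084), *ptc-1* (−0.29) and *sqt-3* (−0.30). With 10 counts in 3 libraries the log2 fold change turned sign for *cdk-2* (−0.024) and *sqt-3* (−0.0088). With libraries thinned to the shallowest the log2 fold change turned sign for *hlh-1* (−0.0059). With no filter the log2 fold change turned sign for *ifg-1* (0.0036) and *lev-11* (0.047). In 1 fit of 6 libraries the log2 fold change turned sign for *ifg-1* (0.0039) and *lev-11* (0.043). With 1 library left out it turned in at least 1 of the 4 fits for *cdk-2* (−0.10 to 0.27), *elt-2* (−0.37 to 0.0069), *erm-1* (−0.078 to 0.22), *hlh-1* (−0.014 to 0.26), *lev-11* (−0.24 to 0.027), *nos-3* (−0.039 to 0.29), *ptc-1* (−0.073 to 0.25) and *sqt-3* (−0.21 to 0.23). The cause of these reversals other than the shift in scale was not tested. Depth limits the lower genes most, as 998 of them had 3 counts or fewer in each *oma-1(zu405)* library. With 2 libraries per genotype the spread is poorly known, and a difference in embryo stage or in RNA between the genotypes cannot be told apart from the mutation.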

Other observations

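Further families are given beside the 11.6% of all genes that rose and the 22.6% that fell. Of 17 tested *skp1*-related genes, which encode adaptors of cullin ligases, 9 rose and none fell, with a median log2 fold change of 2.03 (0.77 with total counts), and all 17 lay in the shortest of 3 classes of exon length. Of 48 tested MATH and BTB genes, 11 rose and 11 fell (22.9% each), and of 51 tested F-box A genes, 1 rose and 21 fell (41.2%), with 41 of the 51 in the lowest of 3 level classes, where 45.8% of all genes fell. Of 16 Argonaute genes, which bind small RNAs, 6 rose and none fell with TMM, and none rose with total counts. Of 28 kinesin and dynein genes, 3 rose (10.7%) and 10 fell (35.7%). None of 13 condensin and cohesin genes was called, with a median of 0.04 (−1.21 with total counts), and all 13 lay in the longest class of exon length. Of 87 neuropeptide genes, 4 rose and 7 fell, a smaller share than the 22.6% of all genes, and 85 of them lay in the shortest class.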
